A study of Mus musculus with 7 samples.

Results

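Carbohydrate sulfotransferase genes of the Chst family were followed in alveolar macrophages with and without Suz12: Chst2, Chst3, Chst7, Chst10, Chst11, Chst12, Chst13, Chst14 and Chst15. These 9 members were taken by symbol from the 27179 genes of the deposited count table, which holds 14 Chst genes in all. The members were chosen by name with their counts in Suz12 cKO against wild type libraries already known. Their difference between genotypes is therefore given as a description, with no p-value, and nothing is read from how many of them differ or were called. Alveolar macrophages, which live in the airspaces of the lung and clear particles and surfactant, had been isolated by flow sorting from lungs of bone marrow chimeras on the C57BL/6 background. Lethally irradiated Ly5.1 recipients had received 90% Ly5.2 test marrow with 10% wild type Ly5.1 marrow. The test marrow was wild type in 4 libraries and Suz12 cKO (a conditional knockout of Suz12, which encodes a subunit that PRC2, a complex that silences genes, cannot do without) in 3. Recipients of both groups thus carried wild type competitor marrow, while the sources used here do not give the Cre that drove the deletion, the age of the mice or whether competitor cells were sorted out.

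Carbohydrate sulfotransferases sit in the Golgi and move a sulfate group from the donor PAPS to a sugar of a growing glycan. Chst11, Chst12 and Chst13 sulfate the 4-O position of N-acetylgalactosamine in chondroitin, and Chst14 does so in dermatan. Chst3 and Chst7 sulfate the 6-O position in chondroitin, and Chst15 adds a 6-O sulfate to a sugar that is already 4-O-sulfated, which makes chondroitin sulfate E. Chst2 sulfates N-acetylglucosamine, as in ligands of L-selectin, and Chst10 makes the HNK-1 epitope of neural cells. In macrophages these chains hang on proteoglycans such as serglycin and versican and on a fraction of CD44.

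The libraries held 48104653 to 79281431 counts. The limit a count of 0 allows, 3 counts, stood for 0.0373 to 0.0619 CPM (counts per 1000000, TMM scaled, counting error only). The design text states 14 to 20 M reads per sample, fewer than the counts. The limits and binomial intervals given here treat each count as an independent read, which was not tested, and may be too narrow. Suz12 was at 22.1, 23.6 and 15.1 CPM in the Suz12 cKO libraries, against 56.5, 56.3, 73.9 and 68.9 CPM in wild type. The 10 markers of alveolar macrophages summed to 22276 to 25649 CPM in wild type and 26358 to 30259 CPM in Suz12 cKO, mostly from Chil3 (4 called higher, namely Itgax, Marco, Fabp4 and Ear2, and 1 lower, Plet1). Suz12 cKO replicates 1 and 2 and wild type replicate 2 stood apart by haemoglobin transcripts (146, 108 and 39.7 CPM, against 1.94 to 3.72 CPM in the other 4). Haemoglobin transcripts mark RNA from blood in the sample, but lung RNA was higher in these libraries too. The 9 alveolar epithelium markers summed to 39.1, 75.0 and 90.2 CPM in them, against 15.3 to 26.7 CPM in the other 4. In bulk RNA, fewer cells of a type and less RNA per cell cannot be told apart.

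Per length, Chst12 was the most abundant member in both genotypes. In wild type it averaged 26.3 ± 4.85 RPKM (reads per kilobase of exon per 1000000 counts, TMM scaled; SD, n = 4), followed by the dermatan enzyme gene Chst14 at 3.49 ± 0.658 RPKM. Chst15 (1.09 ± 0.361 RPKM) and Chst11 (0.741 ± 0.619 RPKM) came next, with ranges that overlapped, and that of Chst11 reached down to that of Chst7. Chst7, Chst2 and Chst3 averaged 0.122, 0.0523 and 0.0234 RPKM, each with no count in wild type replicate 4 and with ranges that overlapped, and Chst13 and Chst10 had no wild type count. In Suz12 cKO, Chst12 was again first with 25.6 ± 6.13 RPKM (SD, n = 3). Below it stood Chst15 with 9.65 ± 2.35, Chst11 with 6.69 ± 1.21 and Chst14 with 5.56 ± 1.26 RPKM. In that genotype the range of Chst11 overlapped those of Chst15 and Chst14, its neighbours in the order. Chst13 followed at 0.50 ± 0.327 RPKM.

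**Figure D1:**
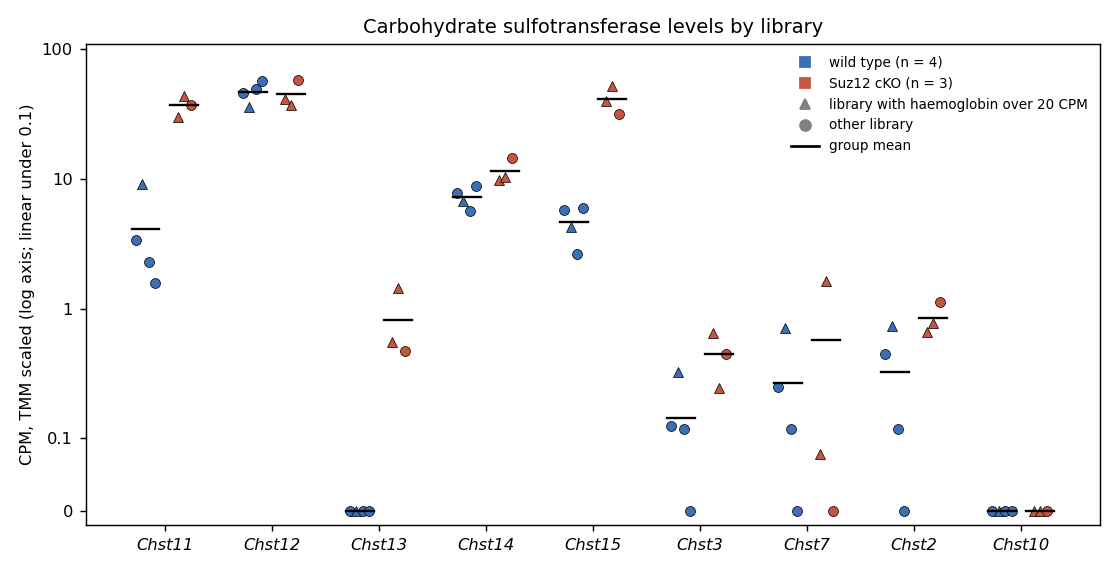
CPM of each member (vertical, TMM scaled, log axis that is linear under 0.1) by library for wild type (blue, n = 4) and Suz12 cKO (red, n = 3), with the group mean as a line and triangles for the 3 libraries with haemoglobin over 20 CPM. Chst11, Chst13, Chst14 and Chst15 have ranges that do not overlap, Chst12 lies between 35.8 and 58.0 CPM in every library, and Chst10 is at 0.

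Among the 4-O-sulfotransferases of chondroitin, Chst11 and Chst13 were higher in Suz12 cKO while Chst12 was level. Chst11 (Entrez 58250, chromosome 10, 82984440 to 83195904 in GRCm38) stood at 30.1, 43.4 and 37.4 CPM in Suz12 cKO. In wild type it stood at 3.41, 9.11, 2.28 and 1.59 CPM. The lowest Suz12 cKO library lay above the highest wild type library, which was wild type replicate 2, and the log2 fold change was 3.17 (SE 0.53), a 9.0-fold difference. Its lowest count was 77, in wild type replicate 4 (exact binomial 95% interval 1.25 to 1.98 CPM). Without wild type replicate 2 the log2 fold change was 3.91. It was 2.01 within the 3 libraries high in haemoglobin and 3.92 within the 4 low ones.

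Chst12 (Entrez 59031, chromosome 5, 140505569 to 140525238) was at 41.6, 37.3 and 58.0 CPM in the Suz12 cKO libraries, against 46.5, 35.8, 49.3 and 56.7 CPM in wild type. The ranges lay over each other, and the log2 fold change was -0.04 (SE 0.19). In each genotype the libraries high in haemoglobin held the lowest values, and within the high and the low libraries the log2 fold changes were 0.14 and 0.18. Chst13 (Entrez 71797, chromosome 6, 90308351 to 90325185) had no count in the 4 wild type libraries. In Suz12 cKO it had 35, 95 and 34 counts, or 0.552, 1.45 and 0.476 CPM, with an exact binomial 95% interval of 0.385 to 0.768 CPM in replicate 1. Pooled over libraries and set against a floor of 3 counts over the wild type group, Chst13 was 67.7-fold higher in Suz12 cKO. The floor covers counting error in wild type only, and the error of the Suz12 cKO level is not included.

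Put per length, Chst12 made up nearly the whole of this enzyme set in wild type and less of it in Suz12 cKO. Its share of the summed RPKM of Chst11, Chst12 and Chst13 was 97.7%, 92.4%, 98.5% and 99.1% in wild type. In Suz12 cKO the share was 80.1%, 70.5% and 82.2%. Chst11 held 3.07% ± 3.07 of the set in wild type and 20.8% ± 5.04 in Suz12 cKO, and Chst13 held 1.61% ± 1.19 in Suz12 cKO (SD, n = 4 and n = 3). The summed level of the set overlapped between genotypes, at 21.7 to 32.02 RPKM in wild type and 29.1 to 39.5 RPKM in Suz12 cKO. These shares are of transcripts and were computed from the values that chose the members.

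**Figure D2:**
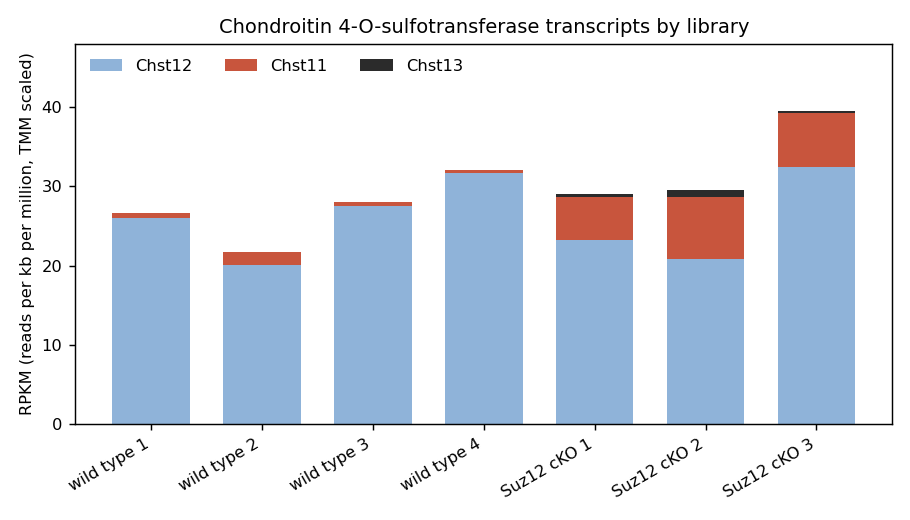
Stacked bars give the RPKM (vertical, reads per kilobase per 1000000 counts, TMM scaled) of Chst12, Chst11 and Chst13 in each of the 7 libraries. Chst11 takes 0.897% to 7.60% of the bar in wild type and 17.1% to 26.5% in Suz12 cKO, while Chst12 lies between 20.0 and 32.5 RPKM throughout.

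Chst15, the 6-O-sulfotransferase that acts on 4-O-sulfated chondroitin, had ranges far apart in the 2 genotypes. Its values were 39.8, 51.8 and 31.9 CPM in the Suz12 cKO libraries, against 5.74, 4.28, 2.64 and 5.98 CPM in wild type (Entrez 77590, chromosome 7, 132235779 to 132323534). The log2 fold change was 3.14 (SE 0.29), an 8.83-fold difference, and it was 3.42 and 2.72 within the libraries high and low in haemoglobin. Unlike Chst11, Chst15 was not highest in wild type replicate 2 among wild type libraries. The non-coding gene Gm10584 is annotated on the opposite strand across a Chst15 start site (132315664 to 132318291). It had 96, 114 and 159 counts in Suz12 cKO and 6, 13, 3 and 0 in wild type (log2 fold change 4.38, SE 1.15, edgeR adjusted p = 0.0446). Gm10584 could not pass the filter on low counts without the Suz12 cKO libraries. Its call was lost without any 1 Suz12 cKO library and without wild type replicate 1 or 3. Its log2 fold change was 5.61 within the libraries low in haemoglobin and 2.92 within the high ones, called in neither (adjusted p = 0.0943 and 0.181). The sources used here do not give the strand setting of the counting, so reads of this overlap cannot be assigned to a strand. The Chst15 count was at least 14.3 times that of Gm10584 in each Suz12 cKO library. The part of the overlap in the Chst15 counts was not tested.

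Chst14, the dermatan 4-O-sulfotransferase gene, had a smaller difference. Its level was 9.78, 10.4 and 14.6 CPM in the Suz12 cKO libraries, against 7.87, 6.79, 5.65 and 8.85 CPM in wild type. The ranges did not overlap but came close, in wild type replicate 4 and Suz12 cKO replicate 1, and the log2 fold change was 0.67 (SE 0.23). It was 0.46 without Suz12 cKO replicate 3, the highest library. Chst14 is a short gene on chromosome 2 (Entrez 72136, 118926497 to 118928585), 1.97 kb from the end of Bahd1, which encodes a heterochromatin protein.

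The remaining 4 members had low counts or none, and Chst13 was likewise low in Suz12 cKO, at 0.476 to 1.45 CPM. Chst3 was at 0.647, 0.244 and 0.448 CPM in the Suz12 cKO libraries, against 0.124, 0.328, 0.119 and 0 CPM in wild type, from 7 to 41 counts where it was seen. Chst2 was at 0.663, 0.777 and 1.12 CPM in the Suz12 cKO libraries, against 0.448, 0.738, 0.119 and 0 CPM in wild type. Both overlapped between genotypes, and their log2 fold changes of 1.62 (SE 1.36) and 1.38 (SE 1.33) were about as large as their errors. Chst7 had 107 counts in Suz12 cKO replicate 2, 5 in replicate 1 and 0 in replicate 3, against 20, 43, 7 and 0 in wild type. Of the 7 libraries, the 2 highest for Chst7 were both high in haemoglobin, and its log2 fold change of 1.08 (SE 1.88) turned to -2.72 without Suz12 cKO replicate 2. Chst10 had no count in any library, which allows up to 0.0373 to 0.0619 CPM by library. The values of Chst2, Chst3 and Chst7 thus overlapped between genotypes.

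In the fit over all genes, 8 of the 9 members passed the filter on low counts. Called at an adjusted p under 0.05 (edgeR, over 14436 genes) were 3 of these 8, Chst11, Chst13 and Chst15, all higher, beside 10.3% of all genes tested called in either direction, 6.28% called higher and 4.02% called lower. Ranges did not overlap for 4 of the 8, beside 25.5% of all genes tested. As the contrast chose the members, these counts repeat that choice and are no test of it. Chst13 could pass the filter only through the Suz12 cKO libraries. Without any 1 of the Suz12 cKO libraries, or without wild type replicate 1 or 3, the count was 2, as Chst13 lost its call.

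**Figure D3:**
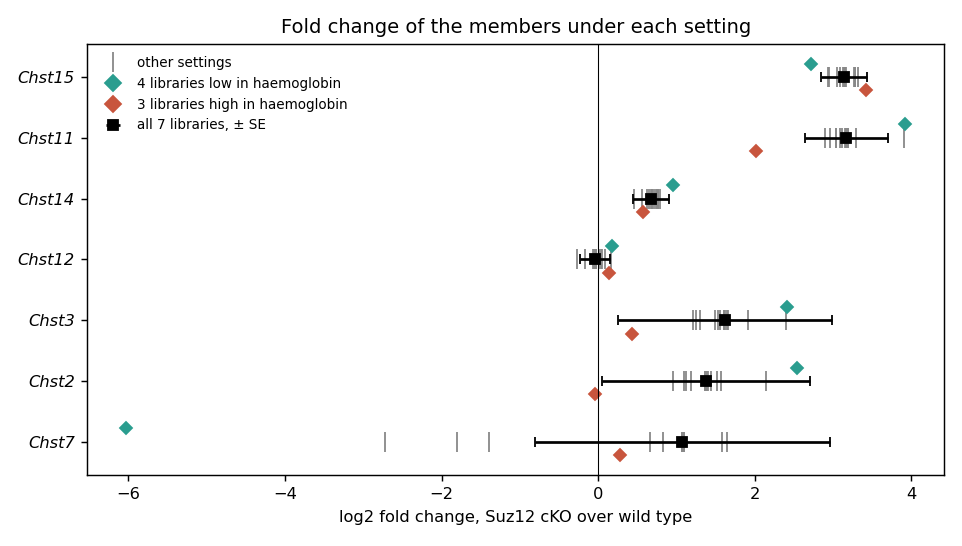
Log2 fold change of Suz12 cKO over wild type (horizontal) for the 7 members with wild type counts, as a square with its SE over all 7 libraries, grey ticks for other settings and diamonds for the libraries low (green) or high (red) in haemoglobin. Chst11 lies between 2.01 and 3.92 and Chst15 between 2.72 and 3.42 under every setting, while Chst12 lies on both sides of 0 and Chst7 spreads from -6.02 to 1.65.

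Markers of some other cells moved with some of these values, and those of others did not. The 10 monocyte and interstitial macrophage markers summed to 1954 to 3216 CPM in wild type and 5165 to 7000 CPM in Suz12 cKO. Of these 10, 3 were called higher (Fn1, Vcan and F13a1) and 0 lower, and Fn1 made up most of the sum. The 10 fibroblast markers summed to 0.206 to 24.0 CPM in wild type, highest in replicate 2, and to 32.4 to 42.2 CPM in Suz12 cKO. Of the 5 tested, 1 was called higher (Pdgfra, which made up most of the sum in Suz12 cKO) and 0 lower. Col3a1 and Dcn had log2 fold changes of -1.34 and -1.43 and were highest in wild type replicate 2, at 8.16 and 6.35 CPM. Pdgfrb and Inmt had log2 fold changes of 3.43 and 0.77, and none of these was called. The 8 neutrophil markers summed to 56.4 to 66.9 CPM in wild type and 118 to 174 CPM in Suz12 cKO. Of the 5 tested, 4 were called higher and 0 lower. S100a8 and Csf3r made up most of the sum. Cxcr2 was called too, as was Retnlg, which could not pass the filter on low counts without the Suz12 cKO libraries. S100a9 was not called (edgeR adjusted p = 0.677) and had no count in Suz12 cKO replicate 3. Mpo, Ngp and Camp lay at 0 to 0.443 CPM and were not tested. In Suz12 cKO replicate 3, Pdgfra stood at 33.6 and Pdgfrb at 0.77 CPM, and the other fibroblast markers, the collagen genes Col1a1, Col1a2 and Col3a1 and the decorin gene Dcn among them, had no count. The erythroid, alveolar epithelium, endothelium, B cell, T and NK cell, dendritic cell, and mast cell and basophil markers had 0 calls. Their sums overlapped between genotypes. The part of any of these cells in the members' values was not tested.

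Promoters are shown for the 3 members of the largest differences and for Chst12, which was level, since PRC2 is known to act at promoters rich in CpG. All 9 members matched the RefSeq promoter table of GRCm38.p6, with 10 windows of 300 bases, from 250 before to 50 after a start site (Chst15 has 2 start sites there). Capitals mark each CpG, and sequences run 5′ to 3′ on the strand of the gene.
Chst11, chr10:82985247-82985546, plus strand: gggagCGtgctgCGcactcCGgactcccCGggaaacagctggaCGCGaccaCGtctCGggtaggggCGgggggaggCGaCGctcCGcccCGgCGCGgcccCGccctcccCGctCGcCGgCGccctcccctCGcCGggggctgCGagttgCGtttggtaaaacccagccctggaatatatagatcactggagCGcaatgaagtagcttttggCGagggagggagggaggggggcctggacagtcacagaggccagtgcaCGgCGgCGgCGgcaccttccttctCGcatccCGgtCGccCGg
Chst13, chr6:90325136-90325435, minus strand: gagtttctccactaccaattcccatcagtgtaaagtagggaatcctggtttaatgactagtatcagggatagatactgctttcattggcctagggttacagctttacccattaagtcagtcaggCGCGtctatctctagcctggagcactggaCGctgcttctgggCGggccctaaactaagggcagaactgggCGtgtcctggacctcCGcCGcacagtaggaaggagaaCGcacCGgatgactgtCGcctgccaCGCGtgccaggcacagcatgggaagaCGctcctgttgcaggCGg
Chst15, chr7:132317179-132317478, minus strand: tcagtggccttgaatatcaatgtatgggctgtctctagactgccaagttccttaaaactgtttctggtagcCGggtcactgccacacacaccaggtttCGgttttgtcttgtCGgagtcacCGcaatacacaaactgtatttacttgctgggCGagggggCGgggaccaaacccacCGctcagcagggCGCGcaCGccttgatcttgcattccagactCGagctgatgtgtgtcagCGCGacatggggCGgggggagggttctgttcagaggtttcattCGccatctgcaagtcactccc
Chst12, chr5:140505359-140505658, plus strand: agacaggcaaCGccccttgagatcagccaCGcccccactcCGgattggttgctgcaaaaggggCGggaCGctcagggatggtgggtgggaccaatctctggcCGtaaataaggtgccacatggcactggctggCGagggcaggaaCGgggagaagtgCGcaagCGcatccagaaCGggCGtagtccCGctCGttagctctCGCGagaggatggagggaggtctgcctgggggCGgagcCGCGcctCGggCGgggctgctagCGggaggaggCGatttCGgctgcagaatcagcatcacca

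The Chst11 window held 34 CpG, that of Chst13 14, that of Chst15 15 (24 at its second start site) and that of Chst12 24, against a median of 7 over the 32851 windows of the table, which covers coding and non-coding genes. The ratio of observed to expected CpG was 0.90 for Chst11, 0.61 for Chst13, 0.66 for this Chst15 window and 0.78 for Chst12. Windows with at least 50% G and C and a ratio of at least 0.6 made up 33.5% of all windows and 8 of the 10 of the members, all but those of Chst7 and Chst14 (ratios 0.41 and 0.60, the latter just short). Chst2 and Chst10, the first hardly seen and the second unseen in these libraries, had ratios of 0.88 and 0.99. CpG-rich windows were thus found at members whose ranges were apart and at members whose ranges overlapped or that had no count. The motif GGGCGG, a GC box, searched on both strands and overlapping the CpG count by its own CG, was in 9 of the 10 windows and in 35.7% of all windows. The motif GAGGAAG, a core of PU.1 sites in macrophages, was in 1 of the 10 windows, that of Chst3, and in 13.6% of all windows, also on both strands.

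Genes next to the members were not used to choose them and were tested. Of the 18 nearest tested genes, 1 on each side of each member, 3 were called higher and 1 lower in Suz12 cKO (22.2% called, beside 10.3% of all genes tested). Bahd1, beside Chst14, averaged 57.0 ± 3.78 CPM in Suz12 cKO against 36.4 ± 5.62 CPM in wild type (log2 fold change 0.65, SE 0.13, edgeR adjusted p = 0.016). Lfng, a glycosyltransferase gene of Notch modification 82.1 kb from Chst12, averaged 103 ± 6.32 against 74.9 ± 3.50 CPM (edgeR adjusted p = 0.0111). Txnrd3, 633 kb from Chst13, averaged 9.03 ± 1.63 against 3.98 ± 0.518 CPM (edgeR adjusted p = 0.0141), and Psap, the prosaposin gene beside Chst3, fell by 0.32 on the log2 scale (edgeR adjusted p = 0.0417). Without Suz12 cKO replicate 1 or 2 the calls of Bahd1, Lfng and Txnrd3 were lost, with adjusted p of 0.0517 to 0.0781, and that of Psap was lost without any 1 library other than wild type replicate 2 (adjusted p up to 0.148). Within the libraries low in haemoglobin these 4 neighbours were not called (adjusted p 0.0894 to 0.208), and within the high ones Bahd1 alone was (log2 fold change 0.50 in the low and 0.98 in the high libraries). The neighbours of Chst11 and Chst15 were not called: Txnrd1 and Slc41a2 had log2 fold changes of -0.03 and 0.30 (edgeR adjusted p = 0.955 and 0.141), and Bub3 and Oat -0.37 and 0.04 (edgeR adjusted p = 0.0647 and 0.887).

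Outside the members, the family was scarcely seen. Chst1, a keratan sulfate 6-O-sulfotransferase gene, had 4, 31 and 0 counts in Suz12 cKO and 9, 54, 24 and 1 in wild type (log2 fold change -0.99, SE 1.73, edgeR adjusted p = 0.8). Its highest libraries, wild type replicate 2 and Suz12 cKO replicate 2, were the same 2 that were highest for Chst7. Chst4, Chst5, Chst8 and Chst9 had no count in any library.

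The other genes that make, sulfate, carry and degrade these chains were taken from 9 lists drawn from textbook knowledge with earlier results of these data known. Of 126 genes other than Chst found in the table, 97 were tested, and 13 rose and 6 fell (19.6% called, beside 10.3% of all genes tested). Their median log2 fold change was 0.13, against 0.00 over all genes tested. The number called higher depended on which libraries entered. It was 3 when wild type replicate 3 was left out and 22 when replicate 2 was. Leaving out replicate 1 or replicate 4 of wild type gave 6 and 7, and leaving out the Suz12 cKO libraries 1, 2 and 3 in turn gave 5, 4 and 6. The number called lower was 2 without Suz12 cKO replicate 1 or 2 or wild type replicate 3 or 4, and 3 without wild type replicate 1.

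Supply of the sulfate donor changed at 1 gene. Papss2, a synthase of PAPS, was at 11.5, 9.75 and 11.5 CPM in the Suz12 cKO libraries, against 0.971, 2.07, 1.35 and 0.701 CPM in wild type. All Suz12 cKO libraries lay above all wild type libraries, with a log2 fold change of 3.10 (SE 0.37; edgeR, adjusted p = 0.00195). Like Chst11, Papss2 was highest in replicate 2 among wild type libraries, and its log2 fold change was 2.36 within the libraries high in haemoglobin and 3.50 within the low ones. Its call was held under all 15 alternative settings. The paralog Papss1 averaged 48.7 ± 3.16 against 53.4 ± 5.69 CPM (edgeR adjusted p = 0.51). Per length, Papss1 stood at 20.6 RPKM and Papss2 at 0.335 RPKM in wild type, and at 18.7 and 2.87 RPKM in Suz12 cKO. The Golgi PAPS transporter genes Slc35b2 and Slc35b3 had log2 fold changes of -0.04 and -0.27 (edgeR adjusted p = 0.866 and 0.365). Of 9 genes tested in this list 1 rose and 0 fell, and the list median was 0.12.

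Of the enzymes that build the chondroitin chain, which the members then sulfate, 8 genes were tested, and 0 rose and 1 fell, with a median log2 fold change of 0.03. Dse, the epimerase that turns chondroitin into dermatan, averaged 70.7 ± 13.1 against 107 ± 16.6 CPM (log2 fold change -0.60, edgeR adjusted p = 0.0439), a call lost without Suz12 cKO replicate 1 or 2 or wild type replicate 1, 3 or 4 (adjusted p up to 0.204 over the alternatives) and within both haemoglobin groups. The polymerase gene Chsy1 had a log2 fold change of 0.53 (edgeR adjusted p = 0.19), and Chpf, Chpf2 and Csgalnact2 lay between -0.01 and 0.06. Among 7 genes of the linker that joins chain to protein, 0 rose and 1 fell, with a median of 0.13. B4galt7, the first galactosyltransferase of the linker, averaged 21.7 ± 2.61 against 31.9 ± 3.75 CPM (log2 fold change -0.56, edgeR adjusted p = 0.0375), a call lost in each leave-one-out fit but those without Suz12 cKO replicate 3 or wild type replicate 2, and within both haemoglobin groups. B3gat3, the most abundant gene of the linker list per length, had a log2 fold change of -0.12 (edgeR adjusted p = 0.534). The phosphatase gene Pxylp1, whose product removes phosphate from the linker, had a log2 fold change of 4.22 from low counts and was not called (edgeR adjusted p = 0.101).

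Enzymes of heparan sulfate, the other main sulfated chain, rose at 3 of 13 tested genes and fell at 0, with a median of 0.38. Ext1, a subunit of the heparan polymerase, averaged 88.1 ± 8.77 against 45.4 ± 13.8 CPM (log2 fold change 0.96, edgeR adjusted p = 0.0206). Its partner Ext2 averaged 90.9 ± 9.17 against 92.5 ± 7.21 CPM (edgeR adjusted p = 0.926). The chain-initiating gene Extl3 and the 3-O-sulfotransferase gene Hs3st3b1 had log2 fold changes of 0.55 and 1.13 (edgeR adjusted p = 0.0471 and 0.0223). These 3 calls did not hold when Suz12 cKO replicate 2 or wild type replicate 3 was left out (adjusted p up to 0.103, 0.173 and 0.15 over the alternatives for Ext1, Extl3 and Hs3st3b1). Without Suz12 cKO replicate 1 or wild type replicate 1 or 4, Ext1 and Extl3 lost theirs too, and Extl3 also without Suz12 cKO replicate 3. Within the libraries high in haemoglobin Extl3 was called and within the low ones Ext1, with log2 fold changes of 0.93 and 1.03, and Hs3st3b1 in neither. The N- and 6-O-sulfotransferase genes Ndst1, Ndst2 and Hs6st1 had log2 fold changes of 0.38, -0.29 and -0.09 and were not called.

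Among core proteins that carry the chains, 4 of 20 tested genes rose (Vcan, Tgfbr3, Csf1 and Agrn) and 1 fell (Cd74), with a median of 0.92. Tgfbr3 had no count in wild type replicates 3 and 4 and could not pass the filter on low counts without the Suz12 cKO libraries. Vcan, the large chondroitin sulfate proteoglycan versican, averaged 1.15 ± 0.228 RPKM in Suz12 cKO and 0.171 ± 0.0382 RPKM in wild type (log2 fold change 2.74, SE 0.24, edgeR adjusted p = 5.7e-04), and its call was held under all 15 alternatives. Vcan was also among the monocyte and interstitial macrophage markers above, and the part of such cells in its value was not tested. Cd74, the invariant chain of MHC class II, which exists in part as a chondroitin sulfate proteoglycan, fell by 0.71 on the log2 scale (edgeR adjusted p = 0.0382). The calls of Tgfbr3, Csf1 and Cd74 were lost on leaving out any 1 Suz12 cKO library or wild type replicate 3 or 4, and those of Tgfbr3 and Csf1 also without wild type replicate 1 (adjusted p up to 0.116, 0.371 and 0.146 over the alternatives). Csf1 had a log2 fold change of 2.73 within the libraries low in haemoglobin and of 0.63 within the high ones (adjusted p = 0.00301 and 0.371). Tgfbr3 was at 5.73 and 3.73 within the low and the high libraries (adjusted p = 0.0641 and 2.7e-04), and Cd74 was called within the high libraries and not within the low ones. Agrn, the agrin gene, named after its value was seen, had a log2 fold change of 0.67 (edgeR adjusted p = 0.0457), a call lost in each leave-one-out fit but that without Suz12 cKO replicate 2 (adjusted p up to 0.147), and not held within the libraries high in haemoglobin. Srgn, the serglycin core of secretory granules, averaged 130 ± 59.4 against 92.0 ± 90.5 RPKM (edgeR adjusted p = 0.698). The wild type mean of Srgn rested on replicate 2, at 228 RPKM against 42.8 to 53.1 RPKM in the other wild type libraries. The Suz12 cKO libraries spanned 67.1 to 185 RPKM for Srgn. Cd44 averaged 352 ± 49.9 against 374 ± 48.1 RPKM (edgeR adjusted p = 0.748).

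**Figure D4:**
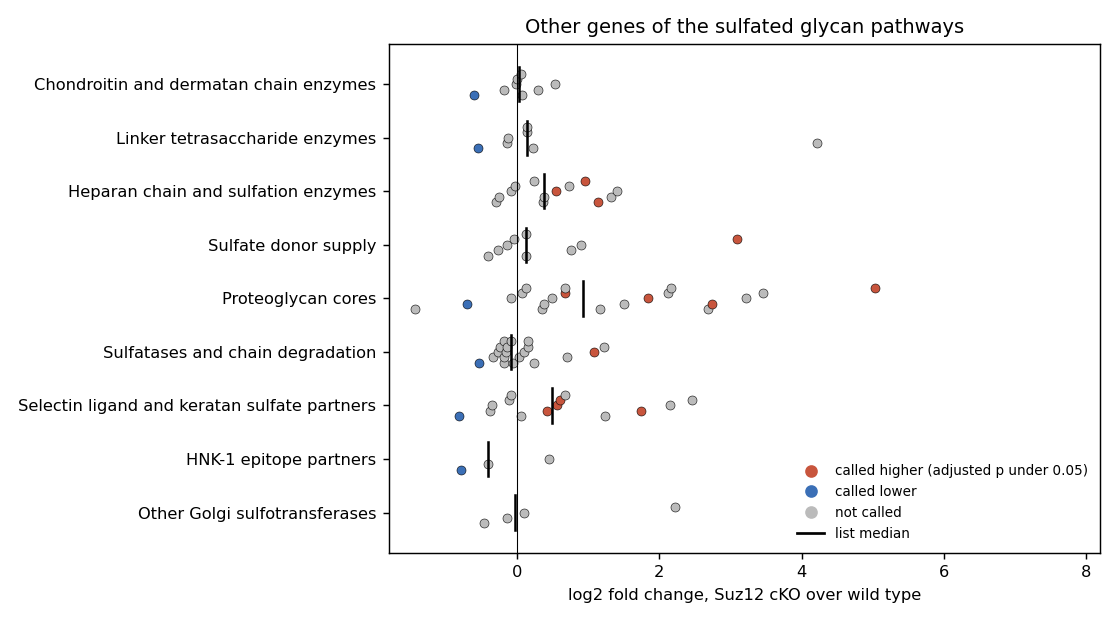
Log2 fold change of Suz12 cKO over wild type (horizontal) for each tested gene of the 9 lists, red where called higher, blue where called lower and grey where not called, with the list median as a bar. Papss2 at 3.10 is the only called gene among sulfate donor genes, and the proteoglycan cores have the highest median, 0.92. That median includes Tgfbr3, Bgn, Gpc2 and Dcn, which passed the filter on low counts only with the Suz12 cKO libraries.

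Partners of the selectin ligand and keratan sulfate branch, in which Chst2 acts, rose at 4 of 14 tested genes and fell at 1, with a median of 0.49. B4galt4, a galactosyltransferase that acts on 6-O-sulfated N-acetylglucosamine, averaged 8.58 ± 1.4 against 2.57 ± 0.652 CPM (log2 fold change 1.74, SE 0.29, edgeR adjusted p = 0.00697), held under all 15 alternatives. B3gnt7, a keratan chain enzyme gene, St3gal4, a sialyltransferase gene, and Selplg, the P-selectin ligand PSGL-1, had log2 fold changes of 0.61, 0.57 and 0.42 (edgeR adjusted p = 0.0157, 0.0332 and 0.0401). These 3 calls were lost without Suz12 cKO replicate 1 or 2 or wild type replicate 3, with adjusted p up to 0.0598, 0.223 and 0.21 over the alternatives. Further libraries ended single calls: Suz12 cKO replicate 3 those of B3gnt7 and Selplg, wild type replicate 1 those of St3gal4 and Selplg, and wild type replicate 4 that of St3gal4. Within the libraries low in haemoglobin these 3 were not called, and within the high ones B3gnt7 and Selplg were. B4galt1, the most abundant gene of the list per length, had a log2 fold change of 0.05 (edgeR adjusted p = 0.786). Gcnt1, which builds the core branch of such ligands and was named after its value was seen, fell by 0.81 on the log2 scale (edgeR adjusted p = 0.0431), a call lost without Suz12 cKO replicate 1 or 2 or wild type replicate 1, 3 or 4 and within both haemoglobin groups.

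In the HNK-1 branch of Chst10, 3 of 5 genes were tested, 0 rose and 1 fell, with a median of -0.41. B3gat1, the glucuronyltransferase that makes the precursor of the epitope, and the carrier gene Ncam1 had no count in any library. L1cam, a carrier, averaged 92.2 ± 14.9 against 159 ± 11.8 CPM (log2 fold change -0.78, SE 0.12, edgeR adjusted p = 0.00558), a call not held within the 3 libraries high in haemoglobin (adjusted p = 0.0666). Of 19 sulfatases and other degrading enzymes tested, 1 rose and 1 fell, with a median of -0.08. Sumf1, the enzyme that activates sulfatases, averaged 93.7 ± 7.63 against 136 ± 3.08 CPM (log2 fold change -0.53, SE 0.09, edgeR adjusted p = 0.00693), not held within the 3 libraries high in haemoglobin (adjusted p = 0.0991). The sulfatase gene Arsg averaged 44.6 ± 7.38 against 21.1 ± 6.40 CPM (edgeR adjusted p = 0.0198), a call lost without Suz12 cKO replicate 2 or 3 or wild type replicate 3 (adjusted p up to 0.0712 over the alternatives). Hexa, the most abundant of the list per length, had a log2 fold change of -0.14 (edgeR adjusted p = 0.418). Of 4 tested sulfotransferases outside the Chst family and heparan enzymes, 0 were called by edgeR, with a median of -0.02; the tyrosine sulfotransferase gene Tpst2 averaged 58.8 ± 1.63 against 65.0 ± 10.3 CPM (edgeR adjusted p = 0.557).

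Genes with a pattern most like each member were ranked by Pearson's r of log2 CPM over the 7 libraries, among genes of at least 10 CPM on average. The 7 libraries share the genotype contrast, so r is a description of likeness and has no test. Chst11 was most like Spp1, the osteopontin gene (r = 0.998), then Prnp and Cemip2 (both r = 0.995). Chst15 was most like Bri3bp, Slc52a2 and Rbpms (r = 0.990, 0.986 and 0.985), and Chst13 most like Cd81, Lmtk2 and Ear10 (r = 0.995, 0.994 and 0.990). Chst14 was most like Col15a1, Adamtsl5 and As3mt (r = 0.986, 0.977 and 0.973), and Chst12 most like Marchf8 and Ubald2 (r = 0.986 and 0.976). Of the other members with few counts, Chst2 was most like Fnip2, Chst3 most like Adam10 and Chst7 most like Akap10 (r = 0.991, 0.975 and 0.976). None of the 3 genes most like Chst11 was among the 3 most like Chst15 or Chst13. Lists this short, drawn from so many genes, would seldom share a gene, so nothing is read from this.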

How the data were processed

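Each deposited table gives raw gene counts, which the authors obtained with featureCounts and mm10, per the submitters' processing notes. Aligner, annotation and strand setting: not given in the sources used here. The design text states 14 to 20 M single-end reads (85 bp) per sample, fewer than the counts. Counts were tested with edgeR 4.0.16 (R 4.3.3; filterByExpr, minimum count 10 and total 15; TMM; quasi-likelihood test on genotype alone; Benjamini-Hochberg adjustment over 14436 genes; called at adjusted p under 0.05), checked on simulated counts. Exon lengths for RPKM are those the authors deposited with the counts. SE is the size of the log2 fold change over the square root of F. Symbols, positions and promoters are RefSeq's for GRCm38.p6, the assembly of mm10 (25275 of 27179 genes matched). The 7 libraries are called biological replicates in the design text. Libraries of a group were no copies of each other (chi-square per degree of freedom at least 47.0).

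Members, lists and the haemoglobin split (over 20 CPM) were chosen with earlier results of these data known. Named are all Chst genes, up to 4 called genes per list by p, the most abundant of each list per length, and up to 3 genes most like a member (prior count 2). Other list genes in the text were picked after their values were seen. Alternatives were DESeq2 1.42.0, other scaling factors, no filter, leaving out each library, a replicate block and the haemoglobin split. No column of the table belonged to another series.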

Additional observations from a re-analysis of the deposited data

Results flagged for a closer look

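Csf1, whose product the macrophage growth factor can carry a chondroitin sulfate chain, was at 11.6 CPM in wild type replicate 2, far from the 2.97 to 3.98 CPM of the other 3 wild type libraries (the gap was 0.883 of the group's range, above Dixon's limit for 4 samples). Of 32 genes with counts so examined it was the 1 so marked, and chance marks about 1 group in 20. Not all list genes were so examined, so Csf1 need not be alone in standing apart in this library. Srgn, outside that check, was at 228 RPKM in wild type replicate 2, against 42.8 to 53.1 RPKM in the other 3 wild type libraries. The core protein genes Thbd and Sdc4 were also highest in wild type replicate 2 among wild type libraries. That library is high in haemoglobin, and the log2 fold change of Csf1 was 0.63 within the libraries high in it and 2.73 within the low ones.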

How the results depend on the processing

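Chst11, Chst14 and Chst15 kept the sign of their log2 fold change under all 15 alternatives, with ranges of 2.01 to 3.92, 0.46 to 0.96 and 2.72 to 3.42. Chst13 kept its sign too, but was called under only 7 of the 15. The values that turned sign were near 0 or from few counts. Chst12 was at 0.0057, 0.082 and 0.05 without Suz12 cKO replicate 1, without replicate 2 and without wild type replicate 4 (range -0.27 to 0.082 with 1 library left out), at 0.035 with a replicate block, at 0.17 with a term for tissue RNA (haemoglobin), and at 0.18 and 0.14 within the libraries low and high in it. Chst7 was at -2.72 without Suz12 cKO replicate 2 (range -2.72 to 1.65), -1.39 with the replicate block, -1.81 with the tissue RNA term and -6.02 within the low libraries, where its Suz12 cKO count was 0, so that the fitted value is no bound. Chst2 was at -0.036, Tpst2 at 0.082 and B4galt1 at -0.046 within the high libraries, and Ext2 at 0.034 without Suz12 cKO replicate 2 (range -0.12 to 0.034). The cause of these turns was not tested.

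Over all genes, 906 were called higher and 580 lower. DESeq2 called 1393 higher, leaving out 1 library gave 447 to 1515 higher and 268 to 885 lower, and the low and high libraries gave 367 and 328 lower. The pathway lists gave 3 to 22 higher and 2 to 9 lower with 1 library left out, and 3 and 2 lower within the low and high libraries. Of the 17 called pathway genes named by the rule, 3 (Papss2, Vcan and B4galt4) were called under all 15 alternatives, and none changed sign. With the replicate number as a block over the 6 libraries that share numbers, 549 genes were called higher and 261 lower. Libraries of the same number correlated in their deviations at -0.04, 0.24 and 0.16, so the numbers do not pair all libraries; Suz12 cKO replicate 1 correlated best with wild type replicate 2 (0.11). Fits with a lone library of 1 genotype assume that it varies like the others. Of 24 pairs of member and most similar gene, 18 and 21 stayed with prior counts of 0.5 and 5. At this depth a count of 0, as for Chst10 in all libraries and Chst13 in wild type, allows up to 0.0373 to 0.0619 CPM by library.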
